A study of Xenopus laevis with 8 samples.

Results

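Hedgehog pathway genes were followed through 8 probes of the *Xenopus* arrays, out of 21495 probes for gene transcripts. They were chosen as probes whose gene name or description on the array names hedgehog, patched, smoothened, a numbered gli gene, suppressor of fused or hedgehog interacting protein. The 8 probes cover the ligands *sonic hedgehog* and *banded hedgehog*, the receptor *ptch1*, the ligand-binding inhibitor *hhip*, the transducer *smoothened*, and the transcription factor genes *gli2*, *xgli4* and *xgli3*. No probe was found under the name gli1 or suppressor of fused, so these genes were not analyzed here.

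Hedgehog proteins are secreted signals. They bind Patched, a membrane protein that otherwise keeps Smoothened inactive, and active Smoothened changes the zinc finger factors of the Gli family from repressors toward activators of transcription. In vertebrate embryos Sonic hedgehog from the notochord and floor plate patterns the ventral neural tube and the somites. The genes *ptch1* and *hhip* are themselves switched on by the pathway in many tissues, which makes them common readouts of its activity.

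The arrays compared animal caps, the ectoderm at the animal pole of the blastula, explanted at stage 9 from embryos that had all received 0.2 ng of Noggin mRNA, which turns this ectoderm toward a neural fate. On the 4 active EBF3 arrays, Cy3 held RNA of caps with 1 ng of hGR-XEBF3 mRNA, a *Xenopus* EBF3 joined to the part of the human glucocorticoid receptor that binds hormone, after 4.5 hours in 30 μM dexamethasone (DEX). On the 4 DEX control arrays, Cy3 held RNA of caps with 0.4 ng of mRNA for the receptor part alone (hGR) and the same DEX. Cy5 held untreated caps with 1 ng of hGR-XEBF3 mRNA on all 8 arrays. DEX-treated RNA was thus always in Cy3, so a dye bias cannot be told apart from the treatment within a group. It cancels in the difference between the groups only as far as both groups share it. Between the channels of the DEX control arrays, the construct and DEX differ together. The caps were whole tissue, so that fewer cells of a type and less RNA per cell cannot be told apart. Replicates 1 and 2 were run on an array design with 1 spot per probe and replicates 3 and 4 on another with 2 spots per probe, all 4 arrays of the latter on 1 slide. The arrays of replicates 1 and 2 were each on a separate slide, so group and slide cannot be told apart there. The first design was scanned at 10 microns and the second at 5. Design, scan and replicate experiment thus differ together.

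Each ratio given here is the log2 of the Cy3 over the Cy5 signal on 1 array. A positive value thus means more RNA in the DEX-treated caps. Signals are scanner intensities after background subtraction and LOWESS normalization. A probe was called when limma gave an adjusted p under 0.05 and the mean change was at least 2-fold. On the active EBF3 arrays, 2 of the 8 Hedgehog probes were called higher and 0 lower, where 3.03% of 21357 probes tested were called higher and 2.84% lower. Both were Gli genes, *gli2* and *xgli4*. The DEX control arrays gave 0 calls among the 8 with limma, like the whole array with 0% of 21256 probes in either direction. There the unadjusted limma p was 0.00993 for *gli2* and 0.0324 for *hhip*, and neither passed after adjustment (0.182 and 0.226). In the test of active EBF3 against DEX control arrays, the same 2 Gli probes were called higher and 0 Hedgehog probes lower, against 2.42% and 1.44% of 21197 probes. The median of the 8 probes was 0.35 on the active EBF3 arrays and -0.29 on the DEX control arrays, where the median of all probes tested was 0.08 and 0.09. The 0.35 is the midpoint of *smoothened* (0.01) and *hhip* (0.70), and *hhip* was 0.67 on the DEX control arrays. For the difference between the groups, the median was 0.21, against -0.08 for all probes.

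**Figure D1:**
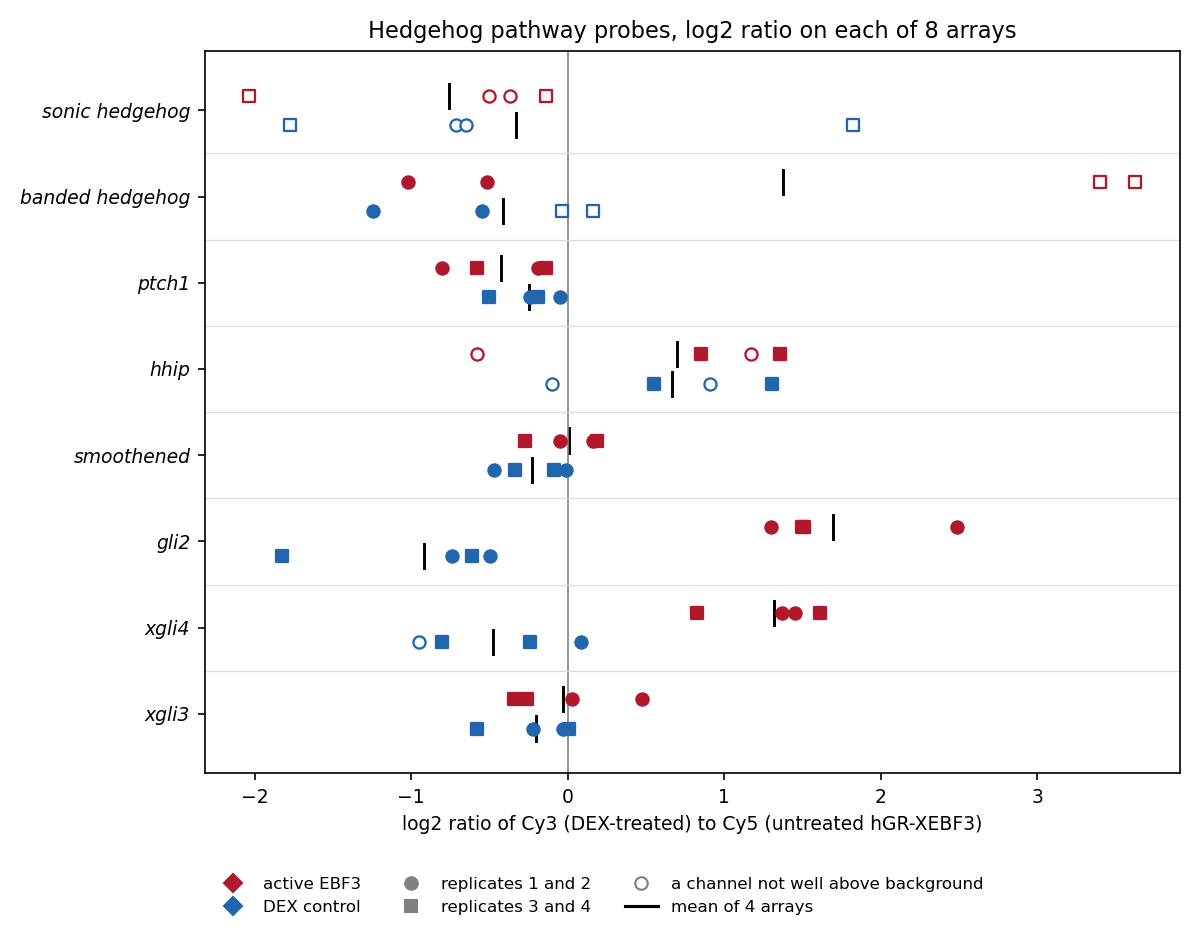
Log2 ratio of Cy3 to Cy5 of the 8 Hedgehog pathway probes on each array, red for active EBF3 and blue for DEX control, circles for replicates 1 and 2, squares for replicates 3 and 4, and black bars for the mean of 4 arrays. Open symbols mark a channel not well above background. The 4 active EBF3 values of *gli2* (1.30 to 2.49) and *xgli4* (0.83 to 1.61) lie to the right of every DEX control value, and the *banded hedgehog* values split by array design.

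*gli2* (probe A_10_P000313) encodes a Gli factor that in the mouse is the main activator at the end of the pathway. On the active EBF3 arrays of replicates 1 to 4 its Cy3 signal was 5965, 3463, 2731 and 4122, against a Cy5 signal of 1065, 1407, 961 and 1460. In the DEX control its Cy3 signal was 656, 792, 402 and 267, against a Cy5 signal of 925, 1323, 614 and 949. The DEX-treated channel was thus the brighter one on every active EBF3 array and the dimmer one on every DEX control array, with both channels well above background on all 8.

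The log2 ratios of *gli2* were 2.49, 1.30, 1.51 and 1.50 on the active EBF3 arrays, a mean of 1.70 ± 0.53 (SD, n = 4) or 3.24-fold higher with DEX (adjusted p from limma = 0.0118). They were -0.49, -0.74, -0.61 and -1.83 on the DEX control arrays, a mean of -0.92 ± 0.61 (SD, n = 4) that did not pass the test (limma adjusted p = 0.182). The groups did not overlap, and the difference was 2.62 (SE 0.36) on the log2 scale, or 6.13-fold (limma adjusted p = 0.00406). Within replicates it ran from 2.04 to 3.33, and it was 2.51 in the arrays of replicates 1 and 2 and 2.72 in those of replicates 3 and 4. The 2 spots of the probe on the later design lay close to each other, for example 1.49 and 1.53 on the active EBF3 array of replicate 3. Leaving out 1 replicate changed 2 calls. Without replicate 4 the active EBF3 mean was 1.76 with a limma adjusted p of 0.0725, and the call was lost. Calls over all probes also fell in that case, from 647 higher and 607 lower to 322 and 153. Without replicate 1 the mean on the DEX control arrays was -1.06 with a limma adjusted p of 0.0432, which made *gli2* a lower call on those arrays. The call on the difference between the groups held with each replicate left out.

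*xgli4* (probe A_10_P027272) bears the name of a *Xenopus* Gli gene that the current genome annotation lists as a synonym of *gli2.L*, while the *gli2* probe matched *gli2.S*. These are the copies of *gli2* on both subgenomes of this allotetraploid frog, and whether each probe binds the RNA of 1 copy alone was not tested. On the active EBF3 arrays of replicates 1 to 4 the Cy3 signal of *xgli4* was 892, 666, 397 and 504, against 345, 243, 129.6 and 284 in Cy5. With hGR the signals were 314, 100.05, 60.6 and 90.6 in Cy3, against 296, 194, 71.5 and 158 in Cy5. Cy3 was brighter on every active EBF3 array, whereas on the DEX control arrays it was dimmer on 3 and about level on replicate 1. Both channels were well above background on all 8 arrays except Cy3 on the DEX control array of replicate 2.

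The log2 ratios of *xgli4* on the active EBF3 arrays were 1.37, 1.45, 1.61 and 0.83, a mean of 1.32 ± 0.34 (SD, n = 4) or 2.49-fold higher (limma adjusted p = 0.0107). The DEX control arrays gave 0.09, -0.95, -0.24 and -0.81, a mean of -0.48 ± 0.49 (SD, n = 4; limma adjusted p = 0.279). The groups did not overlap, and the difference was 1.79 (SE 0.28), or 3.47-fold (limma adjusted p = 0.00695), positive in 4 of 4 replicates and from 1.29 to 2.40. It lost its call without replicate 2 (1.59, limma adjusted p = 0.0796) or replicate 3 (1.78, limma adjusted p = 0.0641), and so did the active EBF3 mean (limma adjusted p = 0.0655 and 0.0535). The difference was also not called in either array design alone. With another background correction, normexp with loess, the mean on the active EBF3 arrays was 0.77, under 2-fold, and the difference was 1.04 and still called. In all, 2 of the 8 Hedgehog probes (*gli2* and *xgli4*) had groups that did not overlap, as did 10.1% of the 21197 probes.

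*xgli3* (probe A_10_P027271) is the *Xenopus* gene for Gli3, which in the mouse acts mostly as the repressor form. Its log2 ratios were 0.47, 0.02, -0.26 and -0.34 on the active EBF3 arrays and -0.03, -0.22, 0.01 and -0.58 on the DEX control arrays. The groups overlapped, with means of -0.03 ± 0.37 and -0.20 ± 0.27 (SD, n = 4 each), and the difference of 0.18 did not pass the test (limma adjusted p = 0.876). It was well above background in both channels of all 8 arrays.

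**Figure D2:**
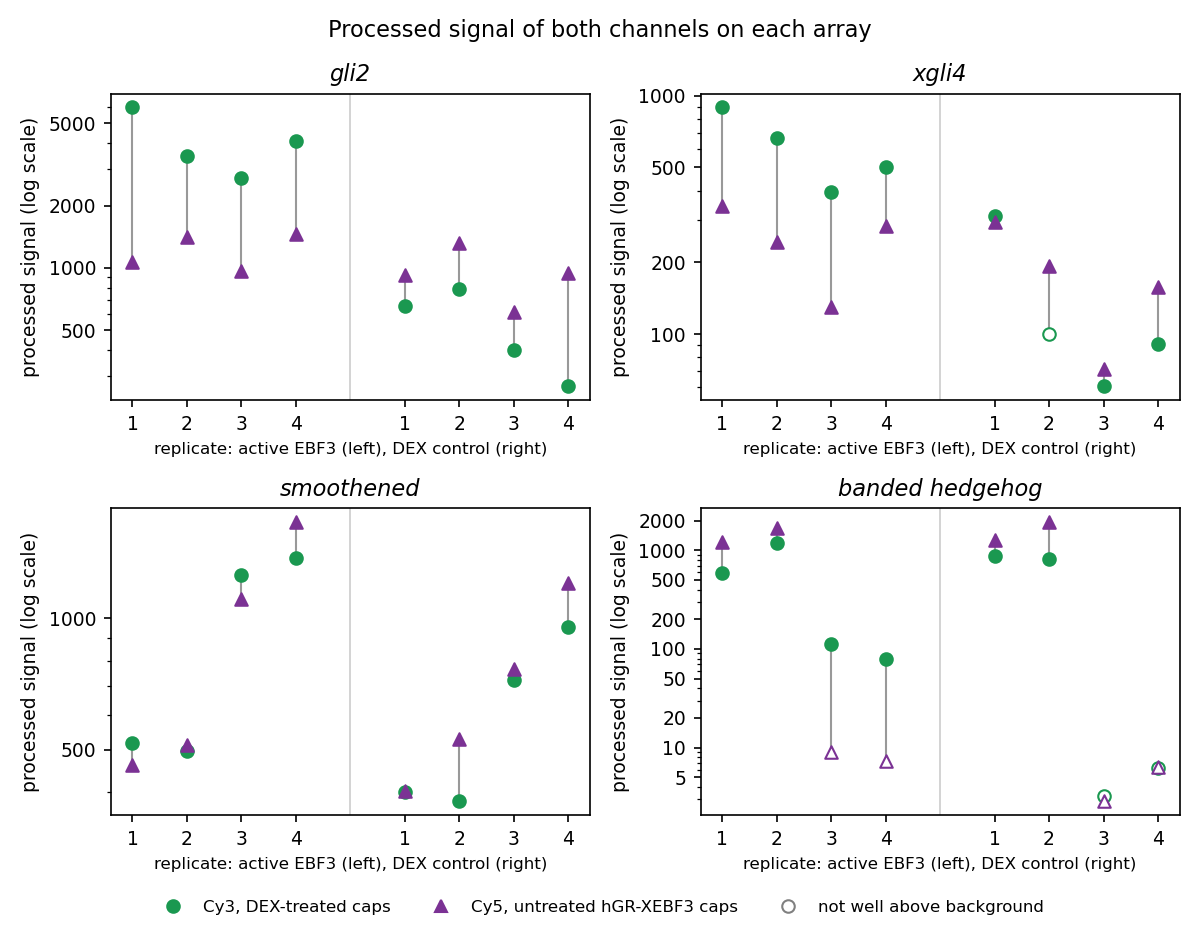
Processed signal in scanner units on a log scale of *gli2*, *xgli4*, *smoothened* and *banded hedgehog* on each array, green circles for Cy3 (DEX-treated caps) and purple triangles for Cy5 (untreated hGR-XEBF3 caps), open where not well above background. Cy3 of *gli2* was 2731 or more on the 4 active EBF3 arrays and 792 or less on the 4 DEX control arrays. Both channels of *banded hedgehog* gave at least 591 on the first design and at most 112 on the second.

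*ptch1* (probe A_10_P000486), the main receptor of the pathway in vertebrates, had log2 ratios of -0.19, -0.81, -0.58 and -0.14 on the active EBF3 arrays and of -0.05, -0.24, -0.50 and -0.19 on the DEX control arrays. All 8 were below 0, yet the groups overlapped. The means were -0.43 ± 0.32 and -0.25 ± 0.19 (SD, n = 4 each), and neither these (limma adjusted p = 0.175 and 0.345) nor their difference of -0.18 (limma adjusted p = 0.843) passed the test.

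*smoothened* (probe A_10_P000487), the transducer between Patched and the Gli factors, had Cy3 signals of 517, 497, 1259 and 1372 and Cy5 signals of 463, 514, 1107 and 1658 on the active EBF3 arrays of replicates 1 to 4. With hGR they were 399.8, 381, 722 and 957 in Cy3, and 403, 529, 767 and 1208 in Cy5, so that both channels lay within 1.39-fold of each other on every array. The log2 ratios were 0.16, -0.05, 0.18 and -0.27 on the active EBF3 arrays. The DEX control arrays gave -0.01, -0.47, -0.09 and -0.34. In each of the 4 replicates the active EBF3 array was the higher one, by 0.06 to 0.42, although the groups overlapped. The difference of 0.23 (SE 0.18) did not pass the test (limma adjusted p = 0.729).

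The ligand *banded hedgehog* (probe A_10_P027230), which the annotation lists as the Indian hedgehog gene *ihh.S*, differed in signal between the array designs. The design cannot be told apart here from the replicate experiments run on it. On the active EBF3 arrays of replicates 1 to 4 its Cy3 signal was 591, 1181, 112 and 78.3, against 1200.1, 1688, 9.06 and 7.41 in Cy5. In the DEX control, Cy3 was 872, 811, 3.21 and 6.27, against 1274, 1918, 2.87 and 6.43 in Cy5. Both channels were well above background in replicates 1 and 2 of both groups, while in replicates 3 and 4 only Cy3 on the active EBF3 arrays was. Such a loss was uncommon. Of 11759 probes with Cy5 well above background on all 4 arrays of replicates 1 and 2, 345 (2.93%) had it on none of the 4 arrays of replicates 3 and 4.

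Log2 ratios of *banded hedgehog* on the active EBF3 arrays were accordingly -1.02 and -0.52 with the first design (replicates 1 and 2) but 3.63 and 3.40 with the second (replicates 3 and 4). With hGR they were -0.55 and -1.24 on the first design, and 0.16 and -0.04 on the second. The active EBF3 mean was 1.37 ± 2.48 (SD, n = 4) with a limma adjusted p of 0.370, and the difference between the groups was 1.79 with a limma adjusted p of 0.597. That difference was 0.13 on the first design and 3.45 on the second (limma adjusted p = 0.00456 from the 2 arrays of each group). On the second, Cy3 was 112 and 78.3 with active EBF3 and 3.21 and 6.27 in the DEX control. Cy5 of both groups and Cy3 of the DEX control were not well above background there. With the array design as a block, the active EBF3 mean was called (limma adjusted p = 0.00853) although the designs had opposite signs.

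*sonic hedgehog* (probe A_10_P027055), the ligand of the notochord and floor plate, was close to background. Cy3 stood well above background on 0 of 8 arrays and Cy5 on 3 of 8, with Cy5 signals between 2.11 and 149.5. The log2 ratios were -0.37, -0.50, -0.14 and -2.04 on the active EBF3 arrays and -0.71, -0.65, 1.82 and -1.77 on the DEX control arrays. In Cy3, Feature Extraction had used a surrogate value for at least 1 spot on every array except replicate 3 of the DEX control. Neither mean nor their difference passed the test, and at this signal no fold is given.

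*hhip* (probe A_10_P003143) encodes a membrane protein that binds Hedgehog ligands and holds them back from Patched. It was well above background only in replicates 3 and 4, in both channels and both groups. Its log2 ratios were -0.58, 1.17, 1.36 and 0.85 on the active EBF3 arrays and -0.10, 0.91, 0.55 and 1.30 on the DEX control arrays. In replicate 1 of both groups, where the ratio was below 0, Cy3 was a surrogate value. The means of 0.70 ± 0.88 and 0.67 ± 0.60 (SD, n = 4 each) differed by 0.03 (SE 0.46; limma adjusted p = 0.992), and Cy3 exceeded Cy5 on 3 of 4 arrays in each group.

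**Figure D3:**
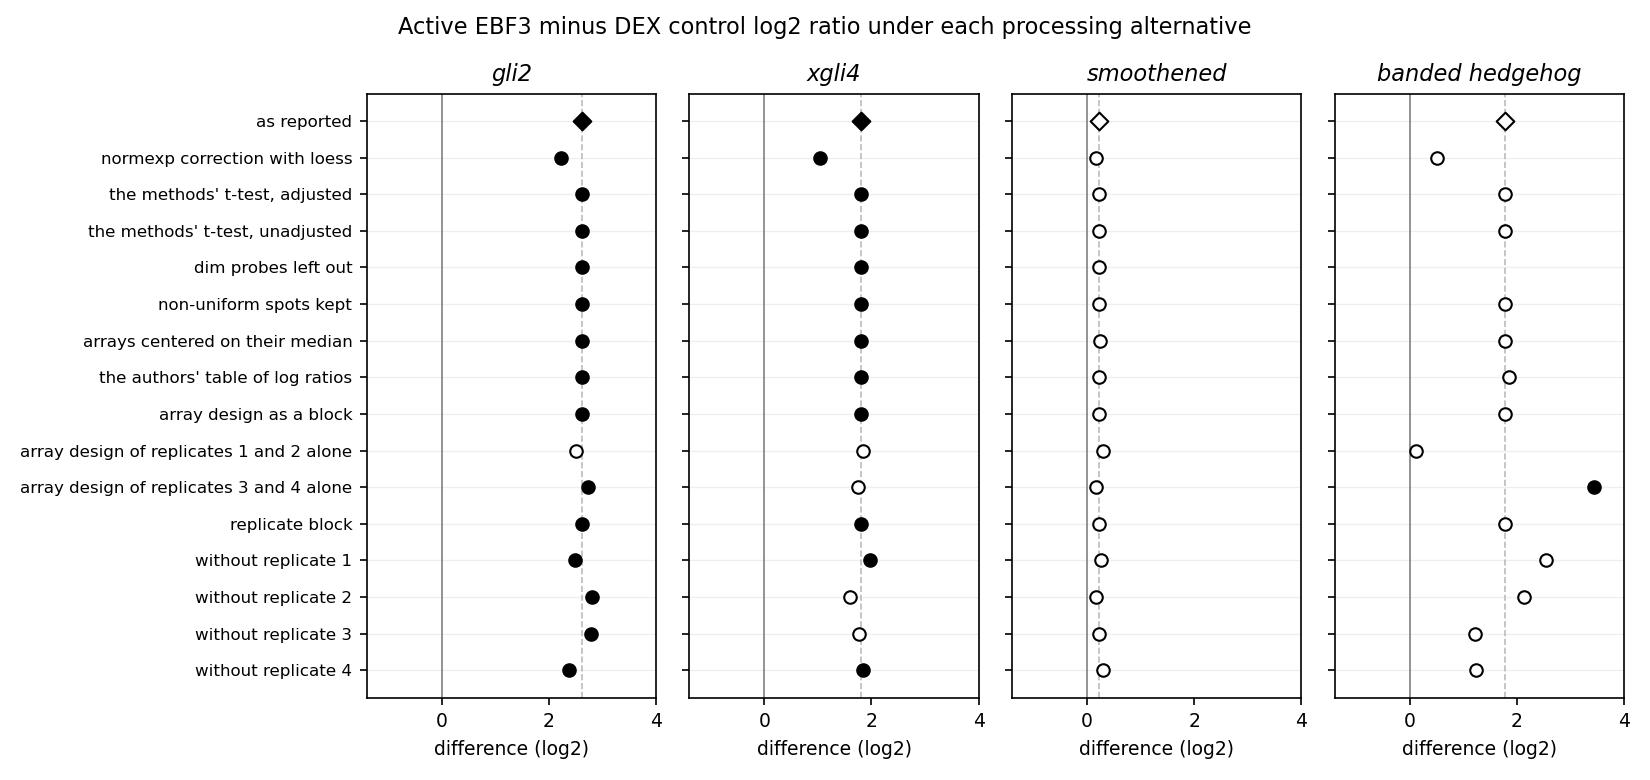
Difference in log2 ratio between active EBF3 and DEX control arrays for *gli2*, *xgli4*, *smoothened* and *banded hedgehog* as reported (diamond) and under each processing alternative (circles), filled where the probe was called. *gli2* stayed between 2.22 and 2.81, *xgli4* between 1.04 and 1.96 and *smoothened* between 0.17 and 0.30, whereas *banded hedgehog* ranged from 0.13 to 3.45.

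A wider list of 51 pathway genes had 26 probes assigned by name to 22 of them. On the active EBF3 arrays 3 of the 26 were called higher, 3 lower and 20 not, where 3.03% of all probes were called higher and 2.84% lower. In the test between the groups, calls were 3 higher and 0 lower, against 2.42% and 1.44% of all probes. The 9 probes listed for cytoplasmic and ciliary parts of the pathway were called in none of the 3 comparisons. They included *gsk3b*, *csnk1a1*, the protein kinase A subunit *prkacb*, *btrc* and *kif3a*. The probe listed as *prkaca* among the 9 bears the gene name got2-prov on the array, so which gene it measures is uncertain. The 3 for ligand processing and release were also called in none of the 3 comparisons. The median of the 26 was 0.01 on the active EBF3 arrays. Some uncalled probes were near background on these 4 arrays, which limits what their ratios show. Each channel was well above background on 0 arrays for *sfrp1*, 1 for the *ccnd2* probe A_10_P027511 and 2 for the *prkaca* probe. For *nkx2-2* it was so for Cy5 on 0 and Cy3 on 1.

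Both co-receptors of the list that had a probe, *cdon* and *boc*, were higher with an adjusted p under 0.05, and *cdon* was called. *cdon* and *boc* encode related membrane proteins that bind Hedgehog ligands together with Patched, and in the mouse they also promote muscle differentiation. The log2 ratios of *cdon* were 0.72, 1.79, 1.30 and 1.29 on the active EBF3 arrays (mean 1.27 ± 0.44, SD, n = 4; 2.42-fold, limma adjusted p = 0.0181) and -0.17, -0.15, -0.32 and -0.91 on the DEX control arrays. The difference was 1.66 (SE 0.27), or 3.16-fold (limma adjusted p = 0.00858). Without replicate 2, 3 or 4 it was 1.57, 1.67 and 1.48, and the call was lost (limma adjusted p = 0.0609, 0.0907 and 0.0648). The call of *cdon* on the active EBF3 arrays was lost likewise (limma adjusted p = 0.0746, 0.0802 and 0.0981). For *boc* the ratios were 0.90, 0.88, 0.67 and 0.59 on the active EBF3 arrays and -0.21, -0.14, -0.19 and -0.09 on the DEX control arrays, a difference of 0.92 (SE 0.14) or 1.89-fold. On the active EBF3 arrays *boc* had a limma adjusted p of 0.0248 (0.0557 to 0.125 with a replicate left out). The difference of *boc* had a limma adjusted p of 0.00647 (0.0271 to 0.0819 with a replicate left out), but was under 2-fold. At any size of change, 5 of the 26 probes had an adjusted p under 0.05 in the test between the groups, as did 4.59% of all probes. *gpc4*, for a heparan sulfate proteoglycan of the cell surface, was one of them, with a difference of -0.69 (SE 0.14; limma adjusted p = 0.0276, and 0.0728 to 0.243 with a replicate left out).

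The 12 probes for genes known to respond to the pathway in other tissues went in both directions. *foxf1*, a mesenchymal Hedgehog target in the mouse, and *pax7* were called higher against the DEX control arrays, with differences of 5.48 (SE 0.34; limma adjusted p = 0.000122) and 3.51 (SE 0.31; limma adjusted p = 0.000424), and kept both calls with any 1 replicate left out. *mycn* (-1.03, limma adjusted p = 0.0338), *pintallavis*, the frog *foxa4* of notochord and floor plate (-2.28, limma adjusted p = 0.0316), and *pax6* (-2.95, limma adjusted p = 0.00548) were called lower on the active EBF3 arrays. Each call was lost without replicate 4, and those of *mycn* and *pintallavis* also without replicate 2 or 3 (limma adjusted p = 0.0594 to 0.139). None of these 3 was called against the DEX control arrays, where the differences were -0.80, -1.88 and -1.50. For *pax6*, the DEX control array of replicate 4 had a ratio of -4.00 where the others were -0.85 to -0.26, which made the difference smaller. The difference of *pax6* was -2.29 without replicate 4 and -0.91 without replicate 2, not called in either case. In the neural tube Sonic hedgehog represses *pax6* and *pax7*. Here *pax6* was called lower on the active EBF3 arrays alone, and *pax7* was called higher there and against the DEX control arrays. The part of the pathway in these values was not tested.

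**Figure D4:**
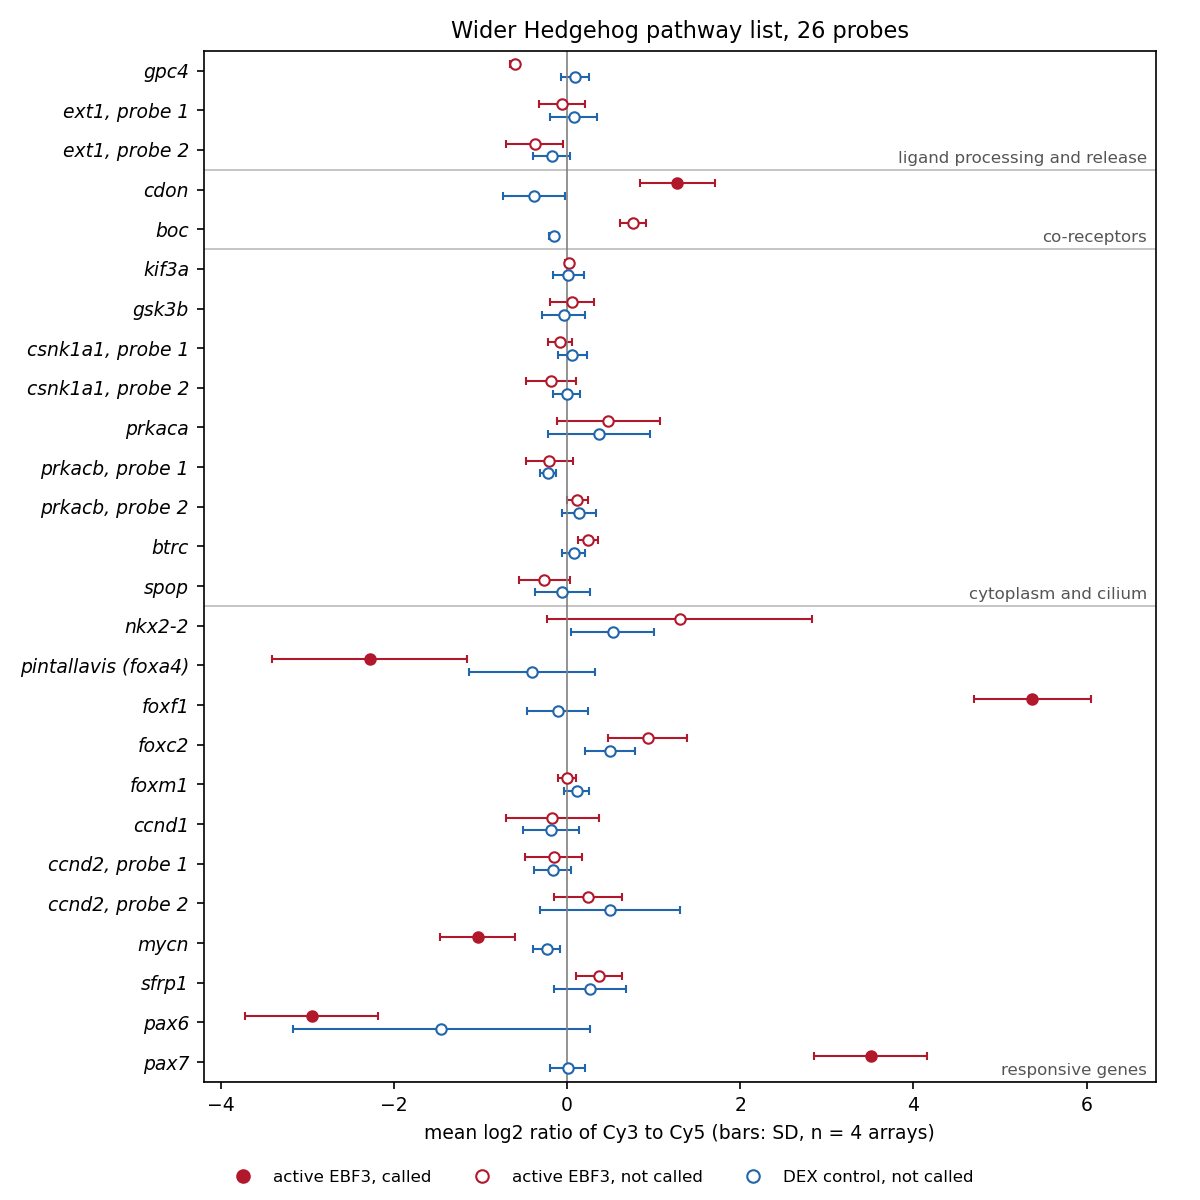
Mean log2 ratio of Cy3 to Cy5 of the 26 probes of the wider pathway list, red for active EBF3 and blue for DEX control arrays, bars for the SD of 4 arrays, filled where called. *foxf1* (5.37) and *pax7* (3.51) lie far to the right and *pax6* (-2.95) and *pintallavis* (-2.28) to the left, while the cytoplasmic and ciliary probes lie near 0. The probe labeled *prkaca* bears the gene name got2-prov on the array.

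Some markers of other tissues were also called, in both directions. Of 5 mesoderm and organizer probes, 2 (*myod1* and *not*) were higher calls with active EBF3 and 0 were lower, against 3.03% and 2.84% of all probes. The other 3 had means below 0 there (*xbra* -0.14, *chordin* -0.54 and *goosecoid* -1.37) and were not called. Of these, *xbra* and *goosecoid* were close to background. Their Cy3 was well above it on 0 of the 4 active EBF3 arrays, and their Cy5 on 1 and 2. The summed Cy3 signal of the 5 was 205893 to 288918 with active EBF3 against 2058 to 5136 on the DEX control arrays. This sum does not separate *myod1* and *not* from the other 3. Both *myod1* and *not* were also called against the DEX control arrays. Of 6 neural ectoderm probes, 3 (*sox2*, *zic1* and 1 of 2 for *ncam1*) were called lower and 0 higher on the active EBF3 arrays. Their summed Cy3 signals in replicates 1 to 4, over all 6 probes, were 499929, 334425, 146988 and 142591. On the DEX control arrays the sums were 765873, 750545, 246720 and 295135, higher in each same-numbered pair. The sum of DEX control replicate 1 leaves out *geminin*, which had no value on that array. Against the DEX control arrays only *zic1* of the 5 tested was called (-2.27, limma adjusted p = 0.00260). There *sox2* had a difference of -0.92 (limma adjusted p = 0.114) and the *ncam1* probe one of -0.20, with means of -1.51 on the active EBF3 and -1.32 on the DEX control arrays. Its call with active EBF3 was lost without replicate 2, 3 or 4 (limma adjusted p = 0.106, 0.0797 and 0.0556). Of 4 floor plate and notochord probes, *not* was called higher and *pintallavis* lower. Of 3 cement gland probes, *agr2* was a lower call with active EBF3 (-4.74, limma adjusted p = 0.00453) and against the DEX control (-3.99, limma adjusted p = 0.0176), the latter not without replicate 2 or 3 (limma adjusted p = 0.137 and 0.147). Of 3 endoderm probes, *mix1* was called higher in both (3.49, limma adjusted p = 0.00710, and 3.37, limma adjusted p = 0.00394). The probes for *sox17a* (-2.62 and -2.17) and *sox17b* (-1.19 and -1.45) were below 0 in both and not called. For *sox17b*, Cy3 was well above background on 0 of the 4 active EBF3 arrays and Cy5 on 2. The calls of *agr2* and *mix1* on the active EBF3 arrays were lost without replicate 4 (limma adjusted p = 0.0528 and 0.0620). The 3 epidermal probes were called in neither comparison. In untreated caps 5 of 6 neural and 3 of 3 epidermal probes were well above background on all 4 active EBF3 arrays, and no marker probe was below it on all of them. The part of these tissues in the values of *gli2*, *xgli4* and *cdon* was not tested.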

How the data were processed

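The 8 arrays were Agilent two-color arrays of *Xenopus* caps, 4 per group, from 4 biological replicate experiments. The authors deposited scanner output, with intensities already background-subtracted and LOWESS-normalized by Feature Extraction, and a table of log10 ratios, which was used as an alternative. The deposited file headers name version 8.1.1.1 for replicate 1 and 9.1.3.1 for the others. Control and non-uniform spots were left out, the log2 of Cy3 over Cy5 was taken for each spot and averaged per probe, and a probe was well above background where at least 0.5 of its spots were. Means were tested against 0, and the groups against each other, with limma 3.58.1 in R 4.3.3 (two-sided), with Benjamini-Hochberg adjustment over all probes with values on every array. Calls needed an adjusted p under 0.05 and 2-fold. The number of arrays limits the precision.

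Replicate numbers pair the arrays: deviations from the group means of same-numbered arrays correlated at 0.591, 0.493, 0.366 and 0.574 over 21197 probes, and those of other pairs at -0.339 to 0.0483. Values on every array were given for all 8 probes. The probes and lists were chosen with earlier results of these data known. Current symbols came from RefSeq gene tables for *Xenopus laevis*, matched on locus number or listed synonym. Of the 8, 7 probes matched 1 symbol and *smoothened* matched 2. 1 probe found by name is not reported here. No probe sequences or coordinates are given. The script was tested on simulated data. Alternatives were normexp with loess, the methods' t-test run unpaired (adjusted or not), a filter on dim probes, non-uniform spots kept, and centering. Others were the authors' table, array design as a block or alone, the replicate block, and each replicate left out.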

Additional observations from a re-analysis of the deposited data

Results flagged for a closer look

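The log2 ratio of *gli2* differed between the active EBF3 and the DEX control arrays, by 2.62 on the log2 scale in the limma test of the difference (adjusted p = 0.00406). The ratios were above 0 on 4 of 4 active EBF3 arrays and below 0 on 4 of 4 DEX control arrays. That of *xgli4* differed by 1.79 in the same test (adjusted p = 0.00695), with ratios above 0 on 4 of 4 active EBF3 arrays and below 0 on 3 of 4 DEX control arrays. Construct and DEX differ together between the channels of the DEX control arrays. Between the groups, Cy3 caps had DEX in both and Cy5 caps were untreated in both. Each difference thus sets 1 ng of hGR-XEBF3 mRNA against 0.4 ng of hGR mRNA, both with DEX, and construct and amount differ together. An array was set apart where its gap to the nearest of the others divided by the range of the 4 ratios was above the critical value of Dixon's test, which was so in 0 of 16 sets, 1 for each of the 8 probes in each group. Just under this limit were *gli2* on the active EBF3 arrays (0.825, replicate 1) and on the DEX control arrays (0.815, replicate 4), and *sonic hedgehog* on the active EBF3 arrays (0.808, replicate 4).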

How the results depend on the processing

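Of 8 Hedgehog probes, the number called on the active EBF3 arrays was 2. It was 1 with normexp and loess, and 0 with the adjusted t-test of the methods. That t-test was run unpaired on the Cy3 and Cy5 signals here, so it did not use the pairing of the channels on an array. Without adjustment it gave 2, with 609 of all probes called higher and 519 lower. The number was 0 in the array design of replicates 1 and 2 alone, where 102 of 21358 probes were called higher and 11 lower. It was 5 in that of replicates 3 and 4 alone (where 6.62% of all probes were called higher and 7.16% lower). With a replicate left out it was 1 to 3. Over all probes, calls were then 734 higher and 752 lower without replicate 1, and 353 and 214 without replicate 2. They were 436 and 259 without replicate 3, and 322 and 153 without replicate 4. On the DEX control arrays the number of Hedgehog probes called went from 0 to 1 in the design of replicates 3 and 4 alone. There 0.954% of all probes were called higher and 1.35% lower. With a replicate left out, the number on the DEX control arrays was 0 to 1. Between the groups it went from 2 to 0 in the design of replicates 1 and 2 alone, and was 1 to 2 with a replicate left out. Calls over all probes are not given for these between-group counts, nor for the DEX control counts with a replicate left out. Such counts are therefore not read as a result about the Hedgehog probes. A design alone leaves 2 arrays per group. With the replicate block the count between the groups was 2, and the block changed no call. The other alternatives left each count within 1.5-fold. In the design of replicates 3 and 4 alone the count between the groups stayed at 2, but *banded hedgehog* was called and *xgli4* was not. There 2.15% of all probes were called higher and 1.07% lower. Over all probes, the active EBF3 arrays gave 647 calls higher and 607 lower, against 329 and 287 with normexp and loess and 193 and 81 with the adjusted t-test. The causes were not tested. The difference of *gli2* kept its sign in 15 of 15 alternatives and its call in all but the design of replicates 1 and 2 alone (adjusted p 0.00154 to 0.250). That of *xgli4* kept its sign in 15 of 15 and lost its call in 4 (adjusted p 0.00249 to 0.339). These 4 were each array design alone, and replicate 2 or replicate 3 left out. Signals near background limit *sonic hedgehog*, *hhip*, *banded hedgehog* in replicates 3 and 4, and Cy3 of *xgli4* on the DEX control array of replicate 2.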

Other observations

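*nkx2-2*, a homeobox gene that Sonic hedgehog induces in the ventral neural tube, had a mean log2 ratio of 1.30 ± 1.53 (SD, n = 4) on the active EBF3 arrays and 0.53 ± 0.48 on the DEX control arrays. Of the 4 active EBF3 arrays, Cy5 was well above background on 0 and Cy3 on 1, and neither mean passed the limma test (adjusted p = 0.214 and 0.246).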
